A study of Mus musculus with 55 samples.

Results

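The heat shock chaperone family was followed here through 10 mouse genes, Hspa1a, Hspa1b, Hspa8, Dnajb1, Hsph1, Hspa4l, Bag3, Hsp90aa1, Hsp90ab1 and Hspb1, in cultured forebrain neurons driven by depolarization, synaptic activity or release from silencing. The genes were taken by name, and each was represented by the RefSeq transcript of that symbol with the most counts. They were 10 of 28488 genes in one experiment and 10 of 28212 in the other, and all 10 were present in both tables. The largest changes against a control were in the stress-inducible Hsp70 genes. After 180 min in high potassium, Hspa1a and Hspa1b were above their unstimulated control at 7, 21 and 23 days in vitro (DIV). After 180 min of bicuculline with 4-aminopyridine they were above it at 23DIV, with no call at 7DIV. Bicuculline alone at 21DIV moved Dnajb1 and Hsph1, and TTX withdrawal moved Bag3 upwards with Hspa1b below its control.

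The study asked how the age of a neuronal culture and the way it is stimulated shape transcription. Neurons came from cortex and hippocampus of CD1 mouse embryos of mixed sex, with both regions in each suspension. The maturation experiment held 28 samples. At 7DIV it had 3 basal samples, 3 each of 55 mM KCl for 15 and 180 min, and 3 each of 4APBic, which is 50 µM bicuculline with 2.5 mM 4-aminopyridine, for 15 and 180 min. At 23DIV, the age given in the labels, it had 3 basal samples, 3 of KCl at each time and 2 of 4APBic at each time. The stimuli experiment held 27 samples at 21DIV: 3 basal samples, 2 each of 55 mM KCl and 2 each of 50 µM bicuculline without 4-aminopyridine (Bic) after 15, 45 and 180 min, 4 basal TTX samples silenced with 1 µM tetrodotoxin (TTX) for 48 h, and TTX withdrawal (TTXw) samples 15 min (3), 45 min (2) and 180 min (3) after TTX had been washed out by repeated changes of medium. KCl depolarizes the membrane directly, bicuculline blocks GABA-A receptors and so releases synaptic firing, 4-aminopyridine blocks potassium channels, and TTX blocks sodium channels and silences firing. Nothing in the labels says that samples of a group came from separate preparations, so p-values measure the spread between these samples, which may be technical. Sample names in the deposited counts also hold a letter, whose meaning is not given. At 21DIV it was B for all KCl and Bic samples at 15 and 45 min. It was A for those at 180 min and for all TTX samples, and the basal samples held both. In the maturation experiment it was A or B at 7DIV and C, D or E at 23DIV, with E only for 4APBic at 180 min.

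Libraries read the 3′ ends of transcripts, and levels are given in CPM, which is counts as a share of the library, scaled with edgeR's TMM factors. The experiments were normalized separately, and 3′ counts are not given per length, so levels are compared neither between experiments nor between genes. Counts on genes ran from 1659263 to 4473908 per sample at 7DIV, from 1783609 to 14008626 at 23DIV and from 1176887 to 3907601 at 21DIV. The neuronal marker Snap25 was counted in all 55 samples, as were the astrocyte marker Gfap and the oligodendrocyte lineage marker Olig2. The summed level of 7 astrocyte markers was 286 to 423 CPM in 7DIV basal samples, 1503 to 1769 CPM in 23DIV basal samples, 1778 to 2266 CPM in 21DIV basal samples and 4193 to 4860 CPM in basal TTX samples, so RNA of astrocytes was present and its amount differed between groups. The microglial marker Cx3cr1 was at 0 in 16 of 28 and 7 of 27 samples, and the fibroblast marker Col1a1 in 7 and 4. In such bulk samples, fewer cells of a type and less RNA per cell cannot be told apart.

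Heat shock proteins bind unfolded polypeptides. Hsp70 proteins do so in cycles of ATP binding and hydrolysis, in which an Hsp40 (J-domain) partner such as DNAJB1 starts hydrolysis and a nucleotide exchange factor such as HSPH1 (Hsp110) or BAG3 resets the cycle. Hsp90 proteins act later on signalling clients, and small heat shock proteins such as HSPB1 hold aggregating proteins. Heat and proteotoxic stress induce part of the family through the transcription factor HSF1, which binds heat shock elements built from alternating repeats of GAA and TTC, while HSPA8 and HSP90AB1 are the constitutive Hsp70 and Hsp90 of most cells.

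The upstream sequences of 5 members are shown, the 5 with both a called response described below and a RefSeq window. Each is the 250 bases before an annotated start site, 5′ to 3′ on the strand of the gene, from RefSeq on GRCm38.p6. The windows lie at chr17:34972157-34972406 (minus strand) for Hspa1a, chr17:34959239-34959488 (minus) for Hspa1b, chr5:149636337-149636586 (minus) for Hsph1, chr8:83607925-83608174 (plus) for Dnajb1 and chr7:128523333-128523582 (plus) for Bag3. Capitals mark a pair of heat shock element units, GAANNTTC or TTCNNGAA. Each pair reads the same on both strands, and the pairs can overlap when 3 units follow each other.
Hspa1a: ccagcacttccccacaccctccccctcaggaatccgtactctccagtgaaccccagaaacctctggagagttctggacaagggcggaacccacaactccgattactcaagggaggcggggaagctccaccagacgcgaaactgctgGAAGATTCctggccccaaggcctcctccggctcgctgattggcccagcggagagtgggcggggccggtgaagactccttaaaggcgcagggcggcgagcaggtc
Hspa1b: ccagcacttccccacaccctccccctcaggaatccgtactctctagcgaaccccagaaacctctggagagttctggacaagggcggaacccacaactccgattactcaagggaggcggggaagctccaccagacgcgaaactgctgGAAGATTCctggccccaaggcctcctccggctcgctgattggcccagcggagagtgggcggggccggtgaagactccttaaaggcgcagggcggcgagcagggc
Hsph1: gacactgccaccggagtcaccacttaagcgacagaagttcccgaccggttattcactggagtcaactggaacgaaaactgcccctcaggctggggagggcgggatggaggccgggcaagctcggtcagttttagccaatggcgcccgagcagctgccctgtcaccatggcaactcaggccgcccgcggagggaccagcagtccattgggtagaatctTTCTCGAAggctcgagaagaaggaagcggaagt
Dnajb1: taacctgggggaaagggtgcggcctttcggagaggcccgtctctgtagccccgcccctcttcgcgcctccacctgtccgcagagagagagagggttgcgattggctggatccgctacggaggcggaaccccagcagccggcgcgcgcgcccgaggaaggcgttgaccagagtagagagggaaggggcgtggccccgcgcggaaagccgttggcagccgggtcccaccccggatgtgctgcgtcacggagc
Bag3: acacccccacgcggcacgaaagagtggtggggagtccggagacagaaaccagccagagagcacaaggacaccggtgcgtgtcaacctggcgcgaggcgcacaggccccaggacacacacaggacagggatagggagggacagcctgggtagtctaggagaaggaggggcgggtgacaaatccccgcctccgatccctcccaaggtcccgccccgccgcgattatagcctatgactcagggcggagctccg

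Hspa1a and Hspa1b carried one GAANNTTC pair at the same place, 104 to 97 bases before the start, and their windows differed at 3 of 250 positions. Hsph1 carried one TTCNNGAA pair 33 to 26 bases before this start site, which lay 54 to 47 bases before a second annotated start. Hspb1 had 2 GAANNTTC pairs, at 117 to 110 and at 97 to 90 bases. No pair was found in the windows of Dnajb1 (2 start sites), Bag3 or Hspa4l, and Hspa8, Hsp90aa1 and Hsp90ab1 were not searched. The second Dnajb1 window (chr8:83608298-83608547) lay inside the annotated gene. For Bag3 and both Dnajb1 windows, the bases just after the start site were found in no reference transcript of the gene. The absence of a pair there describes these windows only. In all, 4 of the 7 members with a window held a pair. Counted by window, 5 of the 9 member windows did, against 12.8% of 32841 RefSeq windows of the same length. The member windows are not independent, since those of Hspa1a and Hspa1b are nearly the same and those of Hsph1 overlap. The difference from all windows was not tested. A run of 3 alternating units stood in none of the member windows and in 0.466% of all windows. A match describes letters, and says nothing here on what binds.

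**Figure D1:**
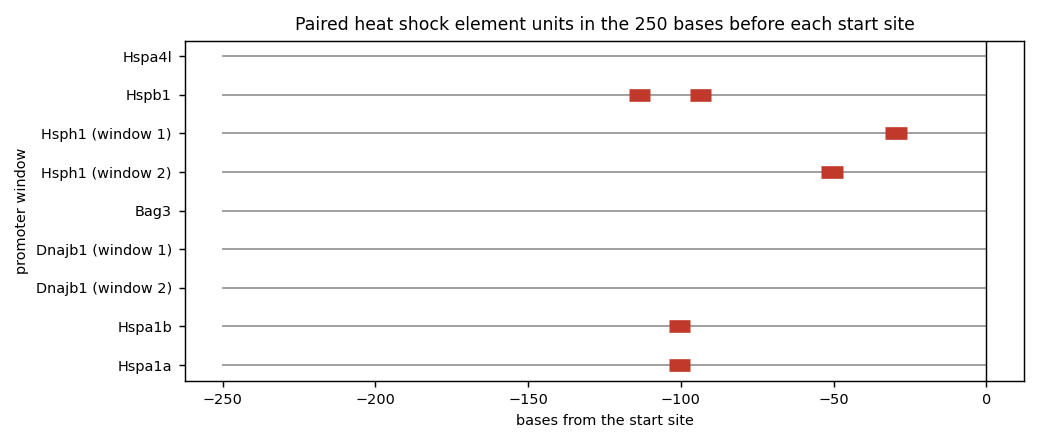
Position of paired heat shock element units (red blocks) in the 250 bases before the start site of the 7 members with a RefSeq window. The x axis is the distance from the start site in bases, and members with 2 annotated start sites have 2 lines. Hspa1a and Hspa1b share 1 position, Hsph1 has 1 pair nearer the start, Hspb1 has 2, and Dnajb1, Bag3 and Hspa4l have none. The start sites of Dnajb1 and Bag3 were not matched to a reference transcript.

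Of the 10 members, 7 passed the filter of 5 CPM in at least 2 samples and were tested in both experiments. Hspa8, Hspb1 and Hspa4l stayed under it. A call required a change of at least 1.5-fold and an adjusted p under 0.05 by the quasi-likelihood test of edgeR, with p-values adjusted by Benjamini-Hochberg over all genes tested. In 7DIV neurons, KCl called no member at 15 min (0% of 11742 genes were called) and 2 higher at 180 min (1.98% of genes). 4APBic called none at 15 min (0% of genes) or at 180 min (0% of genes). For the 7DIV comparisons without a call, edgeR's unadjusted p was under 0.05 for 0 members at 15 min with either stimulus and for 1 member with 4APBic at 180 min, and DESeq2 called 0 in each. In 23DIV neurons, KCl called 1 member higher at 15 min (6.21% of genes) and 2 at 180 min (4.88% of genes). 4APBic called 0 at 15 min (0.0511% of genes, with 0 members at an unadjusted edgeR p under 0.05 and 0 called by DESeq2) and 3 higher at 180 min (14.2% of genes).

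At 21DIV, 12023 genes were tested. KCl called 1 member higher at 15 min (7.23% of genes) and 2 at 180 min (0.765% of genes). At 45 min KCl called 0 members by edgeR (0.765% of genes), with 1 member at an unadjusted p under 0.05 and 0 called by DESeq2. Bic called 1 member higher at 15 min (3.42% of genes), 2 at 45 min (7.45% of genes) and 1 at 180 min (0.765% of genes). TTXw, set against basal TTX, called 0 members at 15 min by edgeR (0% of genes, with 1 member at an unadjusted p under 0.05 and 0 by DESeq2), 1 higher at 45 min (0.383% of genes), and 1 higher with 1 lower at 180 min (14% of genes). Basal TTX against basal called 3 members lower (21.6% of genes). The comparisons at one age share their control samples and are therefore not independent of each other.

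**Figure D2:**
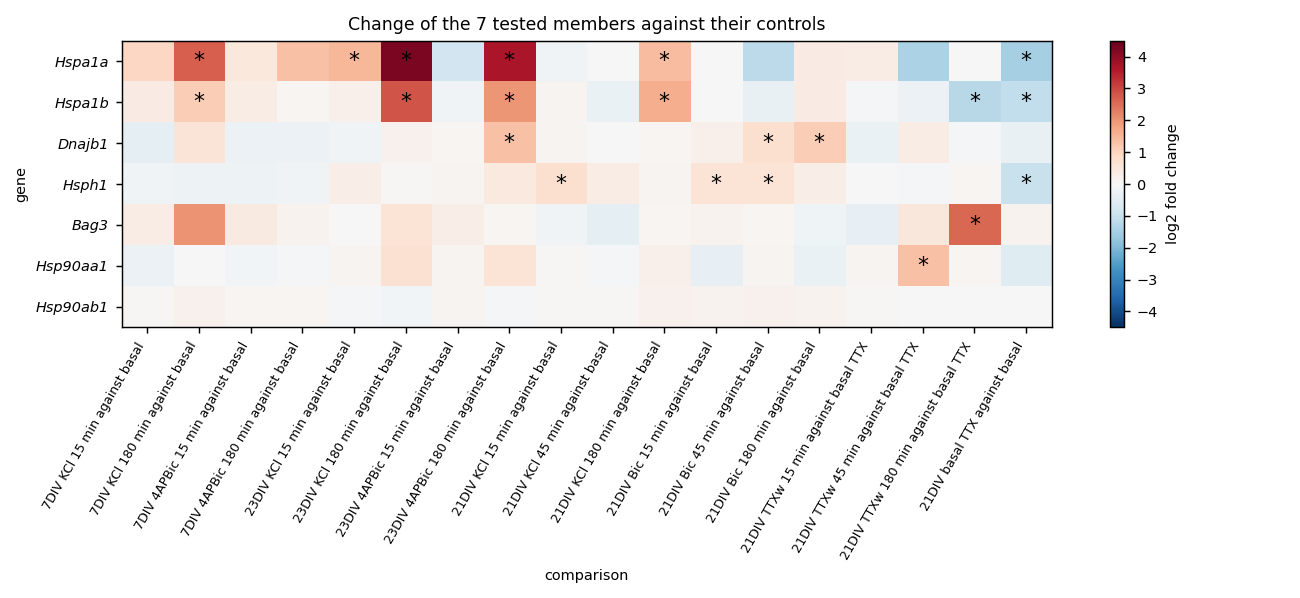
Log2 fold change (colour) of the 7 tested members (y axis) in 18 comparisons with a control (x axis). Asterisks mark calls by edgeR's quasi-likelihood test at an adjusted p under 0.05 and at least 1.5-fold. The darkest reds are Hspa1a at 180 min of KCl and of 4APBic at 23DIV. Next are Hspa1b at 180 min of KCl at 23DIV, Hspa1a at 180 min of KCl at 7DIV and Bag3 at 180 min of TTXw. The 21DIV Bic columns hold calls of Dnajb1 and Hsph1, and the calls of Bag3 and Hsp90aa1 stand in TTXw columns. Hsph1 is also called with 15 min of KCl at 21DIV and in basal TTX.

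Hspa1a (chromosome 17, 34969359 to 34972156, minus strand, mm10) is one of the neighbouring genes for the heat-inducible Hsp70. In 7DIV basal neurons it was at 1.90, 0 and 3.52 CPM, and the 0 allows up to 1.84 CPM (a limit of 3 counts, which like every such limit covers counting error only). With 180 min of KCl it reached 22.7, 8.93 and 10.9 CPM. All 3 stimulated samples lay above all 3 controls, and the log2 fold change was 2.68 (SE 0.49, edgeR adjusted p = 0.00187). With 180 min of 4APBic it was at 5.47, 4.6 and 6.43 CPM, again above every control, but this log2 fold change of 1.32 (SE 0.54) was not called (edgeR adjusted p = 0.7635).

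At 23DIV basal Hspa1a was at 2.59, 2.68 and 2.99 CPM. KCl gave 8.50, 11 and 4.27 CPM after 15 min and 36.2, 72.5 and 49.3 CPM after 180 min. The KCl groups lay apart from the basal group at both times. The log2 fold change was 1.49 (SE 0.40, edgeR adjusted p = 0.017) at 15 min and 4.23 (SE 0.39, edgeR adjusted p = 2.632e-08) at 180 min. The 15 min call was lost in 7 of 14 alternatives, among them leaving out either basal replicate 2 or 3 or either KCl replicate 1 or 2, and the 180 min call was kept in all 14. 4APBic gave 1.71 and 1.37 CPM after 15 min, below the basal samples and not called, and 35 and 36.9 CPM after 180 min. The latter lay 3.68 above basal on the log2 scale (SE 0.41, edgeR adjusted p = 4.224e-07).

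Hspa1b (chromosome 17, 34956429 to 34959238, minus strand) encodes nearly the same protein. The last 500 bases of the Hspa1a and Hspa1b transcripts shared no 50-base word, so reads from their 3′ ends could be told apart. In 7DIV basal neurons Hspa1b was at 29.4, 28.2 and 31.2 CPM and after 180 min of KCl at 69.9, 59.6 and 62.4 CPM. These groups did not overlap, and the log2 fold change was 1.10 (SE 0.22, edgeR adjusted p = 0.004746). With 4APBic for 180 min it was at 31.8, 32.5 and 30.3 CPM, within reach of the controls, with a log2 fold change of 0.09 (SE 0.23).

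At 23DIV Hspa1b was at 22.5, 28.1 and 29.1 CPM in basal neurons. It was at 138, 230 and 198 CPM after 180 min of KCl and at 120 and 89.6 CPM after 180 min of 4APBic. All 5 stimulated samples exceeded all controls. Hspa1b rose by 2.82 on the log2 scale with KCl (SE 0.21, edgeR adjusted p = 4.283e-10) and 1.98 with 4APBic (SE 0.22, edgeR adjusted p = 3.987e-07), and both calls were kept in every alternative run. After 15 min Hspa1b was at 26.9, 44.6 and 23.5 CPM with KCl and at 25.1 and 22.3 CPM with 4APBic. Neither 15 min group was called and both overlapped the basal samples.

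The change with age was tested as the 23DIV response minus the 7DIV response, called on the adjusted p alone. At 180 min of KCl 1 member was called (0.775% of genes): the Hspa1b response was larger by 1.72 on the log2 scale (SE 0.30, edgeR adjusted p = 0.005741). At 180 min of 4APBic 2 members were called (4.94% of genes). One was Hspa1b, larger at 23DIV by 1.89 (SE 0.32, edgeR adjusted p = 0.0007445), and the other was Dnajb1, described below. For Hspa1a the difference was 1.56 (SE 0.67) with KCl and 2.36 (SE 0.72) with 4APBic, and neither was called (edgeR adjusted p = 0.2846 and 0.05153). DESeq2 called the second of these (adjusted p = 0.01892). The summed oligodendrocyte lineage markers moved with the 23DIV responses, from 2391 to 3159 CPM in basal samples to 1151 to 1657 CPM with KCl and 1009 to 1648 CPM with 4APBic at 180 min. Other markers moved as well after 180 min of 4APBic at 23DIV: 2 of 7 astrocyte markers were called lower (Gfap with a log2 fold change of -2.14 and Aqp4 with -1.64), with a summed level of 850 to 1508 CPM against 1503 to 1769 CPM in basal samples. Of 5 neuronal markers, Tubb3 (-1.05) and Rbfox3 (-1.06) were called lower. Of 3 microglial markers tested, Cx3cr1 (5.16 to 6.08 CPM against 0 to 0.692 CPM) and Aif1 (log2 fold change 1.19) were called higher, and the summed level of the 5 counted microglial markers was 19.5 to 20.6 CPM against 4.29 to 8.48 CPM. With KCl for 180 min Tubb3 was called lower (-0.72). The part of these cells in the Hsp70 values was not tested.

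In the stimuli experiment, 21DIV basal Hspa1a was at 9.75, 10.4 and 17.1 CPM, and Hspa1b was at 61.1, 63.7 and 99.4 CPM. KCl for 180 min gave Hspa1a levels of 32.3 and 31.6 CPM and Hspa1b levels of 230 and 236 CPM. For both genes these lay above every basal sample. On the log2 scale the change was 1.37 for Hspa1a (SE 0.33, edgeR adjusted p = 0.03094) and 1.65 for Hspa1b (SE 0.22, edgeR adjusted p = 9.328e-06). The Hspa1a call was lost in 6 of 13 alternatives, including leaving out basal replicate 1 or 2 or either KCl sample, while that of Hspa1b was kept in all 13. The summed oligodendrocyte lineage markers were at 606 to 618 CPM in these KCl samples against 752 to 1198 CPM in basal samples, with Sox10 (-1.44) and Olig2 (-0.83) called lower, and their part in the Hsp70 values was not tested. Bic for 180 min gave 20.8 and 11.5 CPM for Hspa1a and 103 and 87.8 CPM for Hspa1b. These overlapped the basal samples, with log2 fold changes of 0.38 (SE 0.32) and 0.36 (SE 0.22), and were not called. At 45 min of Bic, Hspa1a was at 6.99 and 4.16 CPM, below all basal samples, but its log2 fold change of -1.17 (SE 0.40) missed the threshold (edgeR adjusted p = 0.05563). It was called lower with no filter on low counts (edgeR adjusted p = 0.04486) and in the fit on the samples without TTX (edgeR adjusted p = 0.03157).

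Both genes were lower in neurons silenced for 48 h. In basal TTX samples Hspa1a was at 7.32, 4.65, 2.15 and 3.62 CPM and Hspa1b at 29.3, 47.7, 27.9 and 32.2 CPM, all below the 3 basal samples. The log2 fold change against basal was -1.48 for Hspa1a (SE 0.36, edgeR adjusted p = 0.001338) and -1.11 for Hspa1b (SE 0.22, edgeR adjusted p = 9.749e-05). With the replicate number as a block the Hspa1a value was -0.92 and was no longer called (adjusted p = 0.1135). All 7 astrocyte markers and 5 of 7 oligodendrocyte lineage markers tested were called higher in the same comparison, and the part of culture composition in the lower Hsp70 levels was not tested. Dnajb1 and Hsp90aa1 had log2 fold changes of -0.34 (SE 0.13) and -0.54 (SE 0.23) in this comparison and were not called.

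After TTX withdrawal neither gene rose. At 180 min Hspa1a was at 3.93, 4.26 and 5.31 CPM, inside the basal TTX range. Hspa1b was at 7.85, 8.04 and 31.1 CPM. The first pair of these samples lay below every basal TTX sample and the last lay among them. For Hspa1b the log2 fold change was -1.24 (SE 0.30, edgeR adjusted p = 0.001998). It was -2.10 without replicate 3, the high sample, and -0.87 and no longer called without replicate 2. The 180 min response of Hspa1b was lower with TTXw than with KCl by a log2 difference of -2.89 (SE 0.37, edgeR adjusted p = 8.959e-07) and lower than with Bic by -1.60 (SE 0.37, edgeR adjusted p = 0.003987), the latter being -2.46 without TTXw replicate 3. These contrasts called 2 members (8.33% of genes) against KCl and 3 members (9.8% of genes) against Bic on the adjusted p alone.

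**Figure D3:**
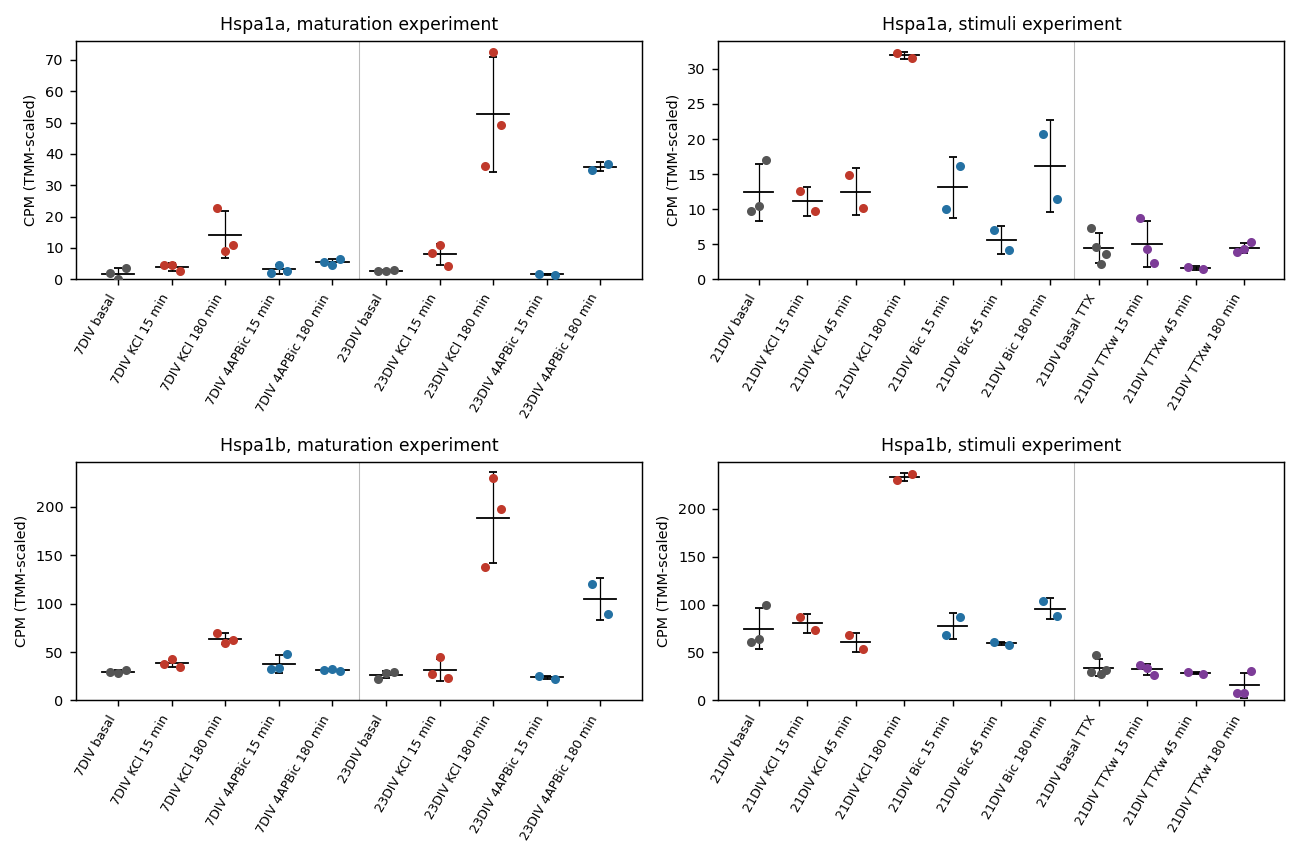
Level of Hspa1a (top) and Hspa1b (bottom) in every sample, in TMM-scaled CPM on the y axis, for the maturation (left) and stimuli (right) experiments, with groups on the x axis. Points are samples, horizontal lines group means and bars SD (2 to 4 samples). For both genes the 180 min KCl groups stand above their controls at each age, as does the 180 min 4APBic group at 23DIV. The 7DIV 4APBic group at 180 min is above its controls for Hspa1a, not called, and overlaps them for Hspa1b.

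The share of Hspa1a in the summed counts of both genes was 8.72 to 10.3% in 23DIV basal samples, 19.9 to 23.9% after 180 min of KCl and 22.6 to 29.2% after 180 min of 4APBic. After 15 min at 23DIV it was 15.4 to 24% with KCl, above basal, and 5.8 to 6.38% with 4APBic, below basal. These 4APBic values rest on 3 Hspa1a counts of 47 and 4 of 69. At 21DIV the share was 13.8 to 14.7% in basal samples. With KCl it was 11.7 to 12.6% at 15 min, 16 to 17.9% at 45 min and 11.8 to 12.3% at 180 min, so it lay below, above and again below the basal range. With Bic it was 12.9 to 15.7%, 6.67 to 10.3% and 11.6 to 16.7% at the same times, and the first and last of these overlapped the basal range. The share thus had no single direction with KCl or Bic at 21DIV. At 23DIV it was above basal in every stimulated group except 4APBic at 15 min, where Hspa1a counts were few. These differences were not tested.

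Dnajb1 (chromosome 8, 83608175 to 83612653, plus strand) encodes the Hsp40 partner that delivers clients to Hsp70. At 7DIV it was at 158, 116 and 94.6 CPM in basal neurons and at 146, 203 and 202 CPM after 180 min of KCl. The lowest KCl sample lay under the highest basal sample, and the log2 fold change of 0.59 (SE 0.20) was not called (edgeR adjusted p = 0.1332). It was called with no filter on low counts (0.62, edgeR adjusted p = 0.02086). Without basal replicate 2, the sample at 158 CPM, it was 0.81 and called (edgeR adjusted p = 0.04291). The joint edgeR test over both KCl times also called Dnajb1 (adjusted p = 0.009005). Dnajb1 was higher at 180 than at 15 min of KCl, when it was at 98.5, 86.4 and 95.2 CPM, by 0.98 on the log2 scale (SE 0.20, edgeR adjusted p = 0.003429). 4APBic for 180 min left it at 90.9, 106 and 106 CPM, below all 3 KCl samples by a log2 difference of -0.86 (SE 0.19, edgeR adjusted p = 0.01684). That last call was lost when any one of 5 of the 6 samples was left out, with values between -1.0 and -0.78.

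At 23DIV the order of the stimuli was the other way round. Basal Dnajb1 was at 77.1, 92.5 and 96.6 CPM, 180 min of KCl gave 82.4, 115 and 108 CPM, and 180 min of 4APBic gave 281 and 158 CPM. KCl overlapped the basal samples and 4APBic did not. Dnajb1 had a log2 fold change of 0.20 with KCl (SE 0.19) and 1.31 with 4APBic (SE 0.21, edgeR adjusted p = 6.421e-05). The 4APBic response at 180 min was larger at 23DIV than at 7DIV by 1.58 (SE 0.29, edgeR adjusted p = 0.001493), and 4APBic stood 1.11 above KCl (SE 0.21, edgeR adjusted p = 0.008532). These values lean on 4APBic replicate 2. Without it the change against basal was 0.82 and still called, while the age difference of 1.10 and the distance to KCl of 0.63 were not called.

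At 21DIV Dnajb1 was at 64.8, 67.4 and 80.4 CPM in basal neurons, at 119 and 117 CPM after 45 min of Bic and at 157 and 147 CPM after 180 min of Bic. Both Bic groups lay above all basal samples. The log2 fold change was 0.74 at 45 min (SE 0.14, edgeR adjusted p = 0.0005164) and 1.10 at 180 min (SE 0.14, edgeR adjusted p = 9.874e-07), and both calls were kept in all 12 alternatives. KCl at 180 min left it at 75.1 and 75.8 CPM, among the basal samples, with a log2 fold change of 0.09 (SE 0.16). The direct contrast of Bic with KCl was 1.01 at 180 min (SE 0.17, edgeR adjusted p = 0.0003638). TTXw for 180 min left it at 53.0, 56.3 and 44.8 CPM against 45.2 to 66.6 CPM in basal TTX samples. The Dnajb1 response to TTXw at 180 min was below that to Bic by a log2 difference of -1.21 (SE 0.20, edgeR adjusted p = 8.064e-05). After 45 min of TTXw Dnajb1 was at 73.7 and 67.9 CPM, above every basal TTX sample, but edgeR did not call it. DESeq2 called its step from 15 to 45 min of TTXw (0.64, adjusted p = 0.04499), which edgeR did not. The joint edgeR test over the TTXw times gave an adjusted p of 0.02612 without a call.

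Hsph1 (chromosome 5, 149616843 to 149636498, minus strand) encodes Hsp110, an exchange factor for Hsp70. At 21DIV it was at 259, 323 and 271 CPM in basal neurons. It was at 483 and 466 CPM after 15 min of KCl, at 458 and 405 CPM after 15 min of Bic and at 359 and 514 CPM after 45 min of Bic. All 6 of these samples lay above the basal samples. The log2 fold change was 0.74 with KCl at 15 min (SE 0.13, edgeR adjusted p = 0.0001577), 0.61 with Bic at 15 min (SE 0.13, edgeR adjusted p = 0.003672) and 0.62 with Bic at 45 min (SE 0.13, edgeR adjusted p = 0.001265). The KCl call was kept in all 12 alternatives. The Bic call at 15 min was lost without basal replicate 1 or 5 or Bic replicate 2, and that at 45 min without Bic replicate 2, when the value was 0.37.

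By 180 min Hsph1 was at 351 and 278 CPM with KCl and at 359 and 348 CPM with Bic, and neither was called. The earlier KCl and Bic samples carry another letter in their names than these, and letter and time cannot be told apart. The summed astrocyte markers were also higher at these early times, at 3049 to 3067 CPM after 15 min of KCl and 3205 to 3773 CPM after 45 min of Bic, and their part in the Hsph1 values was not tested. In basal TTX samples Hsph1 was at 149, 130, 143 and 144 CPM, below every basal sample by a log2 fold change of -1.01 (SE 0.12, edgeR adjusted p = 6.697e-09), a call kept in all 14 alternatives. After TTXw it stayed between 126 and 157 CPM at all 3 times and was not called. In the maturation experiment no stimulus called it, and its samples lay between 272 and 466 CPM.

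**Figure D4:**
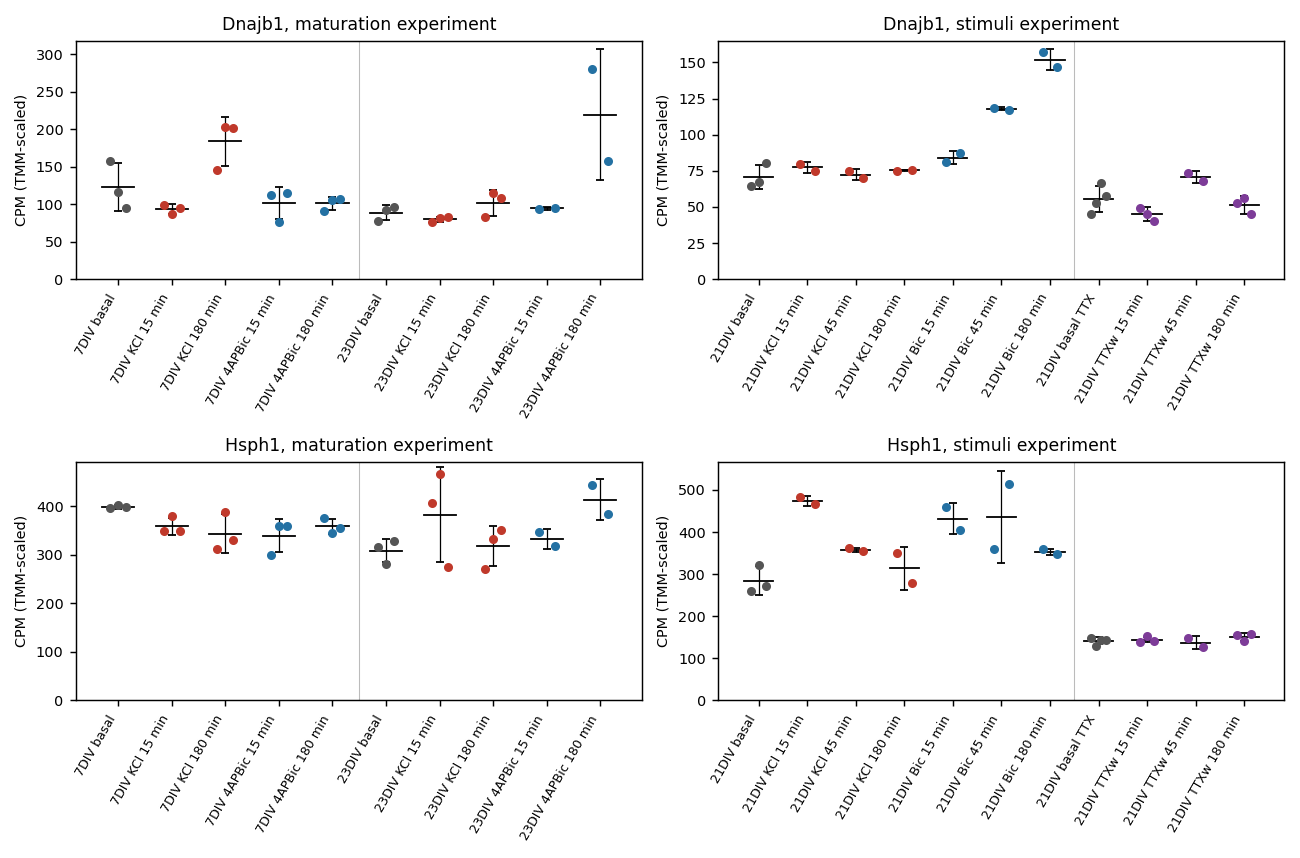
Level of Dnajb1 (top) and Hsph1 (bottom) in every sample, in TMM-scaled CPM on the y axis, for the maturation (left) and stimuli (right) experiments, with groups on the x axis. Points are samples, horizontal lines group means and bars SD (2 to 4 samples). Dnajb1 climbs with Bic at 21DIV and with 4APBic at 180 min at 23DIV, and in the stimuli experiment Hsph1 is highest at the early KCl and Bic times and lowest in the TTX groups.

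Bag3 (chromosome 7, 128523583 to 128546981, plus strand) encodes the Hsp70 exchange factor of stress-induced selective autophagy. In basal TTX samples it was at 3.33, 6.97, 6.44 and 3.26 CPM, and 180 min after TTX withdrawal at 27.5, 30.8 and 29.6 CPM. The groups were far apart, with a log2 fold change of 2.59 (SE 0.31, edgeR adjusted p = 3.955e-08) that was kept in all 14 alternatives. At 45 min of TTXw it was at 5.89 and 7.70 CPM, near its control. The step from 45 to 180 min was 2.09 (SE 0.36, edgeR adjusted p = 6.567e-05). The 180 min response was larger with TTXw than with KCl by 2.49 (SE 0.56, edgeR adjusted p = 0.003278) and than with Bic by 2.77 (SE 0.52, edgeR adjusted p = 0.0003776). Both of these calls were lost when counts were thinned to the smallest library.

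In all other 21DIV samples Bag3 stayed at 2.16 to 7.70 CPM, and at 7DIV it had 0 to 6 counts per sample. After 180 min of KCl at 7DIV it was at 0.858, 2.55 and 1.70 CPM (2 to 6 counts) and was not called. The 7DIV basal samples lay below these, at 0 to 0.614 CPM (0 to 2 counts), where the 0 allows up to 1.42 CPM. Counts this low leave the difference uncertain. Other cell markers moved with the Bag3 rise. From basal TTX to 180 min of TTXw the summed astrocyte markers went from 4193 to 4860 CPM to 6410 to 8031 CPM, the oligodendrocyte lineage markers from 2098 to 2169 CPM to 2985 to 3704 CPM, and the 5 neuronal markers from 3321 to 3828 CPM to 2024 to 2578 CPM. The part of these cells in the Bag3 value was not tested. The washing out of TTX renewed the medium. The study's methods say that control cultures had the same washes, but do not say that these were the basal TTX samples. The part of the medium change in the Bag3 value was not tested.

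Hsp90aa1 (chromosome 12, 110691036 to 110696395, minus strand) encodes the inducible Hsp90. In basal TTX samples it was at 107, 88.3, 110 and 68.7 CPM, after 45 min of TTXw at 312 and 148 CPM and after 180 min at 108, 41.6 and 152 CPM. Both 45 min samples lay above the controls, and the log2 fold change of 1.31 (SE 0.25) was called (edgeR adjusted p = 0.003294), whereas the 180 min samples spread across the control range (log2 fold change 0.08, SE 0.24). The 45 min value rested on replicate 1. Without it the log2 fold change was 0.68 and not called, and with the replicate number as a block it was 1.08 and not called (adjusted p = 0.0579). At 180 min of KCl and of 4APBic at 23DIV its log2 fold changes of 0.68 (SE 0.23) and 0.62 (SE 0.26) were not called (edgeR adjusted p = 0.08297 and 0.09399), and the samples overlapped the basal ones, which were at 71.6, 119 and 55.0 CPM. Both depended on basal replicate 2, the sample at 119 CPM: without it they were 1.05 (edgeR adjusted p = 0.01222) and 0.99 (edgeR adjusted p = 0.01152), and both were called. Both were also called with no filter on low counts, and the KCl value with the replicate number as a block (0.67, adjusted p = 0.03236) and without KCl replicate 1 (0.90).

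Hsp90ab1 (chromosome 17, 45567778 to 45573261, minus strand), the constitutive Hsp90, was not called by edgeR, and its lowest adjusted p against a control after stimulation was 0.2815, with KCl for 180 min at 7DIV. It was at 2558 to 3255 CPM in all 7DIV samples, 1764 to 2309 CPM in all 23DIV samples and 795 to 1197 CPM in all 21DIV samples. The 23DIV samples lay wholly below the 7DIV samples of the same experiment. The basal comparison gave a log2 fold change of -0.39 (SE 0.10, edgeR adjusted p = 0.008209), which passed the test on its p but was smaller than 1.5-fold.

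**Figure D5:**
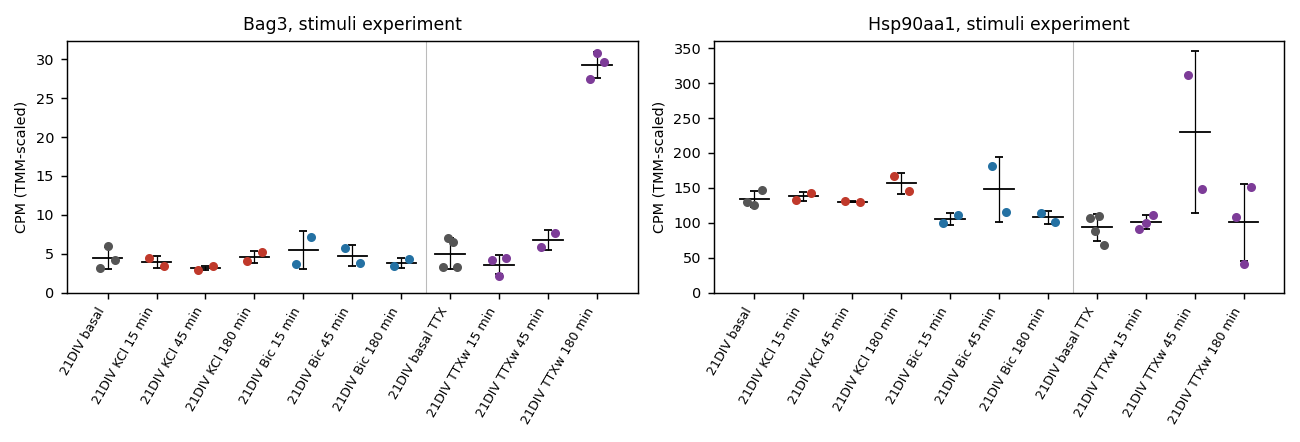
Level of Bag3 (left) and Hsp90aa1 (right) in every sample of the stimuli experiment, in TMM-scaled CPM on the y axis, with groups on the x axis. Points are samples, horizontal lines group means and bars SD (2 to 4 samples). Bag3 stands at 27.5 to 30.8 CPM after 180 min of TTXw and at or below 7.70 CPM elsewhere, and 1 of the 2 Hsp90aa1 samples at 45 min of TTXw is far above the rest.

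Between unstimulated 23DIV and 7DIV neurons, 5 members could be tested on the 6 basal samples and edgeR called 0 of them, where 33.1% of genes were called. The unadjusted p was under 0.05 for 4 members, and DESeq2 called 1, Hsp90aa1. The log2 fold changes were -0.13 for Hspa1b, -0.43 for Dnajb1, -0.34 for Hsph1, -0.58 for Hsp90aa1 and -0.39 for Hsp90ab1. All 5 values lay below 0, and the groups did not overlap for Hsph1 and Hsp90ab1. The Hsp90aa1 value depended on 23DIV basal replicate 2, the sample at 119 CPM, without which it was -0.96 and called (edgeR adjusted p = 0.001512). Hspa1a and Bag3 were too low in these samples to be tested. Bag3 lay the other way, without overlap. It was at 0 to 0.6136 CPM (0 to 2 counts) in 7DIV and 2.146 to 4.497 CPM (12 to 26 counts) in 23DIV basal samples. Hspa1a was at 2.594 to 2.988 CPM at 23DIV, inside its 7DIV range of 0 to 3.522 CPM.

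Bicuculline and KCl were set against each other directly where stage and time matched, which leaves the shared basal samples out. At 7DIV and 180 min 2 members were called lower with 4APBic (1.34% of genes): Dnajb1, given above, and Hspa1b with -1.02 (SE 0.22, edgeR adjusted p = 0.01013), a call lost without 4APBic replicate 3. Hspa1a was not called there, but was called lower with DESeq2 (-1.37, adjusted p = 0.04968) and with no filter (-1.36, edgeR adjusted p = 0.02173). At 23DIV, 1 member was called at 15 min (5.46% of genes), Hspa1a with -2.36 (SE 0.63, edgeR adjusted p = 0.02318), a call lost in 6 of 13 alternatives. At 180 min 1 was called (0.528% of genes), which was Dnajb1. Hspa1b was lower with 4APBic by a log2 difference of -0.84, not called, but was called with the replicate number as a block (-0.95, adjusted p = 0.04261), with DESeq2 (adjusted p = 0.01987), with no filter, with thinned counts and without KCl replicate 1. At 21DIV, 1 was called at 45 min (0.682% of genes), Dnajb1 with 0.70 (SE 0.16, edgeR adjusted p = 0.0211), a call lost when any of the 4 samples was left out. At 180 min 2 were called (0.732% of genes), Dnajb1 higher with Bic and Hspa1b lower by a log2 difference of -1.29 (SE 0.24, edgeR adjusted p = 0.003232). Hspa1b was thus above its Bic level with KCl and Dnajb1 above its KCl level with Bic in the same pair of groups. The Hspa1b call was lost with DESeq2 (adjusted p = 0.0583), when counts were summed over transcripts, and without Bic replicate 2 or 3 or KCl replicate 2, with values between -1.39 and -1.14.

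Later times were also compared with earlier times of one stimulus. From 15 to 180 min, 2 members were called higher with KCl at 7DIV (2.71% of genes), Hspa1a and Dnajb1. Hspa1b had 0.73 in this step, not called, but was called with the replicate number as a block (0.73, adjusted p = 0.04606), with DESeq2 (adjusted p = 0.03072), with no filter, with thinned counts and in the fit on 7DIV samples alone. There were 2 with KCl at 23DIV (0.903% of genes), Hspa1a and Hspa1b, and 3 with 4APBic at 23DIV (12.2% of genes), these and Dnajb1. The 7DIV call of Hspa1a (1.76, SE 0.43, edgeR adjusted p = 0.01717) was lost in 6 of 14 alternatives, and that of Dnajb1 with 4APBic (1.22, SE 0.24, edgeR adjusted p = 0.001043) without 4APBic 180 min replicate 2, when it was 0.74. Hspa1a had the steepest of these, 4.55 (SE 0.61, edgeR adjusted p = 1.653e-05) with 4APBic at 23DIV. From 45 to 180 min at 21DIV, 1 member was called with KCl (0.141% of genes), Hspa1b with 1.94 (SE 0.26, edgeR adjusted p = 2.681e-05), and 1 with Bic (3.04% of genes), Hspa1a with 1.55 (SE 0.41, edgeR adjusted p = 0.02308). The last call was lost in 7 of 12 alternatives. In these KCl and Bic steps, time and the letter in the sample names cannot be told apart. With TTXw, 1 member was called from 15 to 45 min (0.266% of genes), Hsp90aa1, and 3 from 45 to 180 min (12.3% of genes), Bag3 higher and Hspa1b and Hsp90aa1 lower. The Hsp90aa1 step from 15 to 45 min (1.18) was lost in 8 of 12 alternatives, among them DESeq2, counts summed over transcripts, the replicate block, the fit on the TTX samples alone and leaving out any 15 min sample. Without TTXw 45 min replicate 1 it was 0.55, and the Hsp90aa1 step from 45 to 180 min was -0.60, neither of them called. The Hspa1b step was lost in 11 of 13 alternatives.

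The other 3 members had few counts. Hspa8 (chromosome 9, 40801276 to 40805202, plus strand), the constitutive Hsp70, had 48 counts over 28 samples and 13 over 27 samples. Of the 50-base words in the last 500 bases of its transcript, 81.8% also stood in 1 or more of 11 other genes and 81.6% in Gm15459 alone, so its level is uncertain and nothing is read from it. Hspb1 (chromosome 5, 135887919 to 135889563, plus strand), a small heat shock protein, had 55 and 31 counts, with 54.5% of its end words also in Hsp25-ps1. It was at 0 in all 3 basal 7DIV samples, and counts in the highest samples were 10 at 23DIV and 4 at 21DIV. Hspa4l (chromosome 3, 40744500 to 40796103, plus strand), an Hsp110 relative, had 121 and 119 counts with no shared end words, at most 5.52 CPM in any maturation sample and 4.05 CPM in any stimuli sample. With so few counts no change in these 3 could be detected. For Hspa8 and Hspb1, whether the counts were few through shared ends was not tested.

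The transcription factor genes Hsf1 and Hsf2 were called in none of the 42 comparisons. Hsf1 was at 18.3 to 36.9 CPM in the maturation experiment and 7.91 to 23.2 CPM in the stimuli experiment, and over 42 comparisons its log2 fold change ran from -0.38 to 0.51 with a lowest edgeR adjusted p of 0.2919. Hsf2 ran from -0.44 to 0.53 with a lowest edgeR adjusted p of 0.4783. Of the 4 genes of this list 3 were tested, and the call in it was Hsbp1, a negative regulator of HSF1, higher in 23DIV than in 7DIV basal neurons with a log2 fold change of 0.69 (edgeR adjusted p = 0.000886).

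Other chaperones were followed in lists chosen by function, and their calls against a control and between ages are given as log2 fold changes. Of 8 other Hsp40 genes 7 were tested. Dnajb4, a close relative of Dnajb1, was called higher after 180 min of KCl at 7DIV (1.20) and 23DIV (0.77) and of 4APBic at 23DIV (0.98). Dnaja4 was called higher at 23DIV after KCl for 15 min (0.71) and 180 min (0.83) and 4APBic for 180 min (1.24), and Dnajb2 after KCl for 15 min (0.92) and 4APBic for 180 min (0.76). Dnaja4 was called lower after 45 min of Bic at 21DIV (-1.01) and in basal TTX samples (-1.53). In 23DIV against 7DIV basal neurons Dnajb4 (0.90) was called higher and Dnajb2 (-0.78) lower. After 180 min of 4APBic at 23DIV, 3 of 7 such genes were called higher and none lower, with a list median of -0.10 against -0.02 over all genes tested, of which 14.2% were called.

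Of 6 other small heat shock protein genes 4 were tested. After 180 min of 4APBic at 23DIV (14.2% of genes called) Hspb3 (2.28), Hspb8 (1.19), a partner of BAG3, and Hspb6 (0.78) were called higher and Cryab (-0.96), abundant in glia, lower. The list median was 0.98 on the log2 scale against -0.02 over all genes. With KCl at 23DIV Hspb3 (1.26), Hspb8 (1.17) and Hspb6 (0.93) were called higher at 15 min, and Hspb3 (1.29) and Hspb8 (1.47) at 180 min. Cryab was called higher at 21DIV after KCl for 15 min (0.64) and Bic for 15 min (0.75) and 45 min (0.74). After 180 min of TTXw (14% of genes called) Cryab (0.91), Hspb6 (0.71) and Hspb8 (0.63) were called higher and none lower, with a median of 0.81 against 0.02 over all genes, in the same samples as the astrocyte marker rise given above. In basal TTX samples Cryab (0.70) and Hspb8 (1.13) were called higher and Hspb3 lower, at 0 to 0.362 CPM against 6.59 to 10.6 CPM in basal samples. Cryab (2.00) and Hspb8 (2.94) were called higher in 23DIV than in 7DIV basal neurons.

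The ER chaperone Hspa5 (BiP), an Hsp70 induced by ER stress, was called higher at 23DIV after KCl for 15 min (0.72) and 180 min (1.24) and 4APBic for 180 min (1.10), and lower in basal TTX samples (-0.93), as was Hsp90b1 (-0.88). After 180 min of 4APBic at 23DIV 3 of 6 ER chaperones tested were called higher, Hspa5, Dnajb9 (0.72) and Hsp90b1 (0.70), and none lower, beside 14.2% of all genes called and a list median of 0.50 against -0.02 over all genes. Dnajb9 was also called higher after 180 min of KCl at 7DIV (0.79). Of the 8 subunits of the cytosolic chaperonin TRiC, 6 were called lower in 23DIV than in 7DIV basal neurons, where 33.1% of all genes were called, with Cct4 at -1.02 and Cct3 at -0.90 and a list median of -0.76 against 0.01 over all genes. Of 5 mitochondrial chaperones tested Hspa9, the mitochondrial Hsp70, was called higher after 180 min of 4APBic at 23DIV (0.74) and Dnaja3 lower in basal TTX samples (-0.72).

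Of 11 other cytosolic Hsp70 and exchange factor genes, Hspa12a, a distant Hsp70 relative, was called lower at 23DIV after KCl for 15 min (-1.0) and 180 min (-0.73) and 4APBic for 180 min (-0.91), and after 180 min of TTXw (-0.86). Bag5 (-0.72) was called lower and St13 (0.77) higher after 180 min of 4APBic at 23DIV. Bag4 was called lower at 21DIV after KCl for 15 min (-0.69), Bic for 45 min (-0.74) and TTXw for 180 min (-1.07). In 23DIV against 7DIV basal neurons Hspa2 (2.31) and Hspa12a (0.65) were called higher. Of 10 HSP90 co-chaperone genes, Ahsa2 (0.67) was called higher in basal TTX samples. Between ages Fkbp4 (-1.19) and Ahsa2 (-1.15) were called lower and Fkbp5 (1.13) higher in 23DIV basal neurons.

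The 5 genes outside the 10 members whose group means were most like the mean of Hspa1a, Hspa1b, Dnajb1 and Hsph1 were ranked by the lower of 2 Pearson correlations of log2 CPM, over 10 groups of the maturation experiment and 11 of the stimuli experiment. They were Tbpl1 (r = 0.96 and 0.949), Acsl3 (0.913 and 0.907), Hspa5 (0.893 and 0.924), Plk2 (0.897 and 0.891) and Scpep1 (0.926 and 0.882). These values describe groups that share libraries and controls.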

How the data were processed

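RNA of 55 cultures had been made into CEL-Seq2 3′ libraries, aligned with STAR to mm10 and counted in ESAT, the End Sequence Analysis Toolkit. Whole-number counts per RefSeq transcript, not normalized, were deposited by the authors for 28 and 27 samples. Versions and whether molecular identifiers were collapsed are not given in the sources used here. Accessions were matched to symbols with RefSeq tables (80.8% of 97700 and 80.9% of 96722 transcripts; 18.5% and 19.3% of counts were on unmatched transcripts and left out). Each gene was taken as its transcript with the most counts, since transcripts of a gene repeat the same reads (their sum was 3.13 and 3.29 times as large).

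Genes with 5 CPM in at least 2 samples were scaled by TMM and fitted with edgeR 4.0.16 (quasi-likelihood, 1 group per condition, R 4.3.3), with Benjamini-Hochberg adjustment over all genes tested, 11742 and 12023 in number and 10506 for the basal samples of both ages. Calls needed an adjusted p under 0.05 and, except for differences of responses, a 1.5-fold change. SE were derived from the F statistic. On counts simulated for 23DIV KCl at 180 min against basal (11286 genes), edgeR called 95.9% of changes of 4-fold and 67% of changes of 2-fold. For 21DIV KCl at 180 min against basal (11511 genes) it called 88.4% and 62.9%. Alternatives were DESeq2 1.42.0, its size factors, no filter, counts thinned to the smallest library, counts summed over transcripts or over Hspa1a and Hspa1b, fits on part of or on all samples, a joint test over times, a replicate block and leaving out each sample. Replicate numbers do not pair the samples here: deviations of same-numbered samples correlated with a median of about 0 in each set. In 48 replicate pairs counts differed by more than sampling noise (chi-square per degree of freedom 2.08 to 18).

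The members and lists were chosen with earlier results of these data known. Named besides the members were Hsf1, Hsf2, up to 3 called genes per list and comparison with the largest change, and the 5 genes most like the mean of Hspa1a, Hspa1b, Dnajb1 and Hsph1 (log2 of CPM with a pseudocount of 1). Promoter windows came from RefSeq on GRCm38.p6.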

Additional observations from a re-analysis of the deposited data

Results flagged for a closer look

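Several responses of the family differed between groups by a test of the difference itself, edgeR's quasi-likelihood test of an interaction with Benjamini-Hochberg adjustment. Between ages, at 180 min, the Hspa1b response was larger at 23DIV than at 7DIV by 1.72 on the log2 scale with KCl and by 1.89 with 4APBic, and the Dnajb1 response to 4APBic was larger by 1.58. Between stimuli at 21DIV and 180 min, the Hspa1b response to TTXw was below that to KCl by a log2 difference of -2.89 and below that to Bic by -1.60. The Dnajb1 response to TTXw was below that to Bic by -1.21. The Bag3 response to TTXw was above that to KCl by 2.49 and above that to Bic by 2.77. Each TTXw response was taken against basal TTX and each KCl or Bic response against basal, so differences between these controls enter these values. Basal TTX was the one group of 4 samples, and for none of the 7 tested members did a sample of it stand far from the others.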

How the results depend on the processing

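Of 3867 alternative values of single members, 3612 kept their call or stayed uncalled within 1 SE of the main value. Another 126 uncalled values moved by 1 SE or more, 85 lost a call and 43 gained one. In 1 value the sign changed with a call in either fit. Changes of sign between uncalled values were not counted. Of 49 calls, 27 were kept under every alternative run. The median log2 fold change of all genes lay at most 0.0362 from 0. For 23DIV against 7DIV basal neurons the count of called members rose from 0 to 1 with DESeq2, 1 without the filter on low counts, 2 with all 28 samples in the fit, and 0 to 1 when a replicate was left out. For the 180 min responses to TTXw against those to KCl or Bic, the 5 calls became 3 with counts thinned to the smallest library, as both calls of Bag3 were lost. The value counted as changing sign was that of Hspa1a after 180 min of TTXw. It was not called (0.03), and was called at -1.03 when its counts were summed with those of Hspa1b. Summed with Hspa1b, Hspa1a had 1.30 after 180 min of KCl at 7DIV and 2.26 after 180 min of 4APBic at 23DIV, both still called, and lost its calls at 23DIV for KCl at 15 min (0.41) and for 4APBic against KCl at 15 min (-0.64). Leaving out a replicate gave 7 to 9 calls for stimulation in the maturation experiment, 8 to 10 in the stimuli experiment, 3 for basal TTX, 2 to 4 for responses between ages, 5 to 7 for bicuculline against KCl and 10 to 13 between times. With the replicate block the calls were 9 in place of 8 in the maturation experiment, 9 in place of 10 in the stimuli experiment, 2 in place of 3 for basal TTX against basal, 8 in place of 7 for bicuculline against KCl and 12 in place of 13 between times. The replicate block ended the calls of Hspa1a in basal TTX samples (-0.92), of Hsp90aa1 after 45 min of TTXw (1.08) and in its step from 15 to 45 min (1.09), and of Hspa1b from 45 to 180 min of TTXw (-0.96), and could not be fitted for the basal samples of both ages. It added the calls of Hsp90aa1 after 180 min of KCl at 23DIV (0.67), of Hspa1b in 4APBic against KCl at 180 min at 23DIV (-0.95) and of Hspa1b from 15 to 180 min of KCl at 7DIV (0.73). Few counts per sample limit Hspa8, Hspb1, Hspa4l and, at 7DIV, Hspa1a and Bag3.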
